A study of Mus musculus with 9 samples.

Results

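The Schlafen genes are a family of related genes that lie side by side in the mouse genome, and 7 of them (Slfn1, Slfn2, Slfn3, Slfn4, Slfn5, Slfn8 and Slfn9) were followed here in splenic type 2 dendritic cells. They were chosen by name among the 24054 genes in the deposited tables, which also hold the related Slfn14 and Slfn10-ps, and 6 of the 7 had enough reads to be tested, among 14452 tested genes. The cells came from C57BL/6 mice that all carried the genotype Clec9a-Cre/Cre Rosa-tdTomato/tdTomato, in which the Clec9a promoter drives Cre recombinase and any cell with a history of that promoter, together with its progeny, becomes positive for the red protein tdTomato (TOM). Because Cre sits in both copies of Clec9a, every mouse also lacked the receptor DNGR-1, so no group represents a wild-type animal. Viable, non-autofluorescent CD11c+ MHCII+ CD11b+ spleen cells were sorted, and 3 libraries were made from each of 3 groups, namely TOM+ cDC2 from mice at postnatal day 8 (young TOM+ cDC2), TOM- DC2 from mice of the same age (young TOM- DC2) and TOM+ cDC2 from adult mice (adult TOM+ cDC2), of which 1 library came from mice at 9 weeks and 2 from mice at 8 weeks. Spleens of young mice were pooled, and no label says that libraries of a group came from separate animals, so p-values measure the spread between these libraries only. The numbers 81, 91, 92 and 95 in the deposited library names serve as library names below. The comparison of the young groups asks whether ontogeny, read from the TOM label, goes with a difference at 1 age. That of young TOM+ with adult TOM+ cDC2 asks what differs with age under the same label. Young TOM- DC2 differ from adult TOM+ cDC2 in label as well as age. Without an adult TOM- group, that comparison does not isolate age and shows only whether a difference from adults holds in both young groups. The paper states that cells high in the surface protein ESAM were still slightly scarcer in the young mice than in adults. The part of this subset in the differences from adult cells was not tested.

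Schlafen proteins regulate cell proliferation, immune cell quiescence and the handling of RNA, and many of their genes are induced by interferons in myeloid cells. The mouse family is divided by protein length into short members (Slfn1 and Slfn2), intermediate members (Slfn3 and Slfn4) and long members (Slfn5, Slfn8 and Slfn9), the last of which carry a helicase-like region at their C-terminal end. All share an N-terminal Schlafen core, which in several members can cleave transfer RNA.

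Within this family the genes did not move together with age. Slfn5 and Slfn8 were higher in adult TOM+ cDC2 than in both young groups, by 2.48-fold and 2.21-fold over young TOM+ cDC2 in edgeR's quasi-likelihood test. Slfn3 and Slfn9 were higher in both young groups, by 4.42-fold and 2.51-fold in young TOM+ cDC2 over adult TOM+ cDC2. Slfn2, which made up most of the family's transcripts, showed no detectable difference, Slfn1 did not pass the test, and Slfn4 was at or near 0 reads. No member differed detectably between young TOM+ cDC2 and young TOM- DC2.

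All 7 genes lie on chromosome 11 in GRCm38 (the build also called mm10), here with GENCODE M21 gene models. Slfn5 spans chr11:82951349-82964840 on the plus strand, Slfn9 chr11:82978390-82991830 and Slfn8 chr11:83002158-83020810 on the minus strand, and Slfn2 chr11:83065112-83070678, Slfn1 chr11:83116849-83122670, Slfn4 chr11:83175186-83190216 and Slfn3 chr11:83191330-83215154 on the plus strand. Slfn9 and Slfn8 are neighbours with 10.3 kb between them, and Slfn4 and Slfn3 are neighbours with 1.11 kb between them. The longest coding sequences hold 337 codons for Slfn1, 378 for Slfn2, 640 for Slfn3, 602 for Slfn4, 884 for Slfn5 and 910 for both Slfn8 and Slfn9. Over aligned coding bases, Slfn8 and Slfn9 are 92.7% identical and so are Slfn3 and Slfn4, while the other pairs share between 61.8% and 76.2%.

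**Figure D1:**
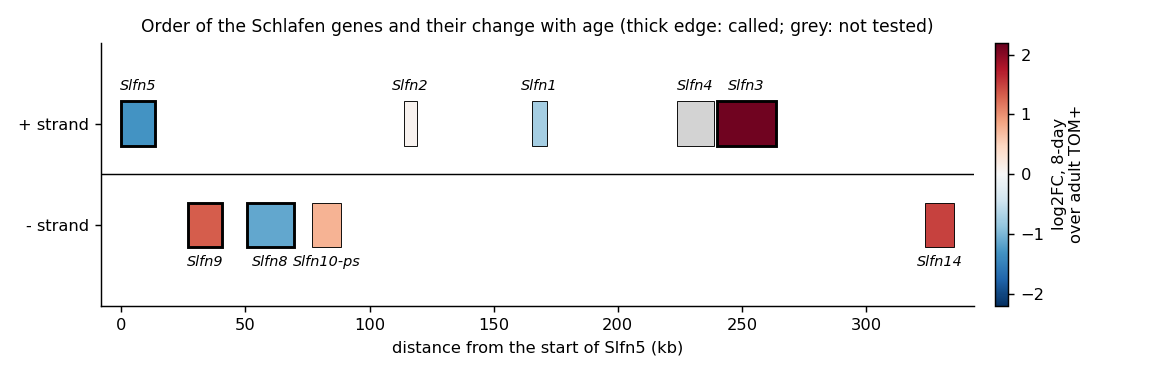
Map of the Schlafen genes in kilobases from the start of Slfn5, with the plus strand above the line and the minus strand below it. Colour gives the log2 fold change of young TOM+ cDC2 over adult TOM+ cDC2 (red higher in young, blue higher in adult), a thick edge marks a called gene and grey a gene that was not tested. The called neighbours Slfn9 (1.33) and Slfn8 (-1.14) have opposite colours.

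Because Slfn8 and Slfn9 are so alike and ran in opposite directions with age, their start regions and their longest identical coding stretch are shown. Each upstream sequence ends at the base before an annotated RefSeq start (GRCm38.p6), for Slfn8 the outer of its 2 annotated starts, except that of Slfn5, which stops where an exon of another Slfn5 transcript begins and lies in an intron of that transcript. Sequences run 5′ to 3′ in the direction of the gene, and capitals mark a match to GAAANNGAAA on either strand, the core letters of an interferon-stimulated response element. The Slfn9 sequence is chr11:82991831-82991990 (minus strand), the Slfn8 sequence chr11:83020811-83020970 (minus strand) and the Slfn5 sequence chr11:82951852-82951984 (plus strand).
Slfn9 upstream: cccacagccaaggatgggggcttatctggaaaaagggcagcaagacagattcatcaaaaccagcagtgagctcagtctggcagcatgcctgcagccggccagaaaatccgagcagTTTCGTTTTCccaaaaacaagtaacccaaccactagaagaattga
Slfn8 upstream: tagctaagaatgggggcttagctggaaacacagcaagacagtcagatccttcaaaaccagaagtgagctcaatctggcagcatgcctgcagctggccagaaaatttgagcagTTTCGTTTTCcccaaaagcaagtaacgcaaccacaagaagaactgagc
Slfn5 upstream: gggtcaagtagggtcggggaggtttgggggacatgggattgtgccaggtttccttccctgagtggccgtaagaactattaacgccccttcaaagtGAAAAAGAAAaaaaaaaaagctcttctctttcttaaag
Slfn8 and Slfn9 shared coding run: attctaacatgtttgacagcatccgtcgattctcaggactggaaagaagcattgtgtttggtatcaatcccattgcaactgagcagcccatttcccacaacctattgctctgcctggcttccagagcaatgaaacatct

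The match in Slfn9 begins 45 bases before the start and that in Slfn8 48 bases before its outer start and 136 bases before its inner one, with the same letters on the minus strand of the gene, whereas the match in Slfn5 begins 155 bases before its start. Over 250 bases upstream of the outer Slfn8 start and the Slfn9 start, the sequences were identical at 206 of 242 aligned bases (85.1%). Slfn1, Slfn2, Slfn3 and Slfn4 have no such match in their 250 upstream bases, and 2.98% of all 32851 RefSeq promoter windows of that length hold one. None of the 7 genes has a match to TTCNNNGAA (the letters of a gamma-activated site, either strand), which 7.02% of the windows hold. The match occurs in genes that were higher in adult cells (Slfn5 and Slfn8) and in one that was higher in young cells (Slfn9). Whether it is bound or acts in these cells was not tested. Only RefSeq starts were searched, so the region before the GENCODE start of Slfn5 at chr11:82951349 was not covered.

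The shared run of 139 bases occupies coding positions 2540 to 2678 in both genes. A read of 50 bases that falls wholly inside it cannot be given to Slfn8 or Slfn9. Of all 50-base windows in the transcripts, 14.6% for Slfn8 and 11.9% for Slfn9 also occur in a transcript of another gene. The shares were 16.0% for Slfn3, 11.3% for Slfn4, 11.1% for Slfn5, 4.3% for Slfn2 and 0.6% for Slfn1. The gene that shared most was Slfn10-ps for Slfn8 (10.1% of windows) and for Slfn9 (8.1%), and Slfn4 for Slfn3 (7.4%). For Slfn5 it was the antisense gene Slfn5os at the same place (7.4%), whose overlap makes reads ambiguous without a second place in the genome. The 2 deposited quantifications treat reads that map to several places differently, as the counts from STAR leave them out and the expected counts from RSEM share them out. STAR counts summed over the 9 libraries came to 84.5% of the expected counts for Slfn8, 81.6% for Slfn9, 73.5% for Slfn3, 99.2% for Slfn5, 95.4% for Slfn2 and 101% for Slfn1, and directions of change were the same by both.

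The libraries held 12783252 to 22809401 reads on genes each, and adult libraries lay toward the lower end (12783252 to 16809639). All 12 cDC2 markers (Itgax, Itgam, H2-Ab1, Cd74 and others) were above 1 TPM in some library. They summed to 73700 to 78600 TPM in young TOM+ cDC2, 70100 to 75600 TPM in young TOM- DC2 and 112000 to 115000 TPM in adult TOM+ cDC2. Genes of the sorted proteins CD11c, MHCII and CD11b are among them, so their expression follows from the gate. All 7 macrophage markers and 6 of 7 monocyte markers passed the same bar, which therefore does not set cDC2 apart from other cells. TPM, the deposited transcript abundances, are per-length levels that add up to the same total in each library. Markers of other cells differed between groups too, also between the young groups of the same age. The 7 macrophage markers summed to 174 to 223 TPM, 284 to 346 TPM and 101 to 152 TPM in the same order of groups, so young TOM+ and young TOM- libraries did not overlap. Markers of monocytes summed to 416 to 447, 383 to 439 and 447 to 477 TPM. B cell markers summed to 60.9 to 70.6, 69.9 to 80.7 and 41.1 to 53.8 TPM, and T cell markers to at most 8.87 TPM in any library. Markers of cDC1 summed to 150 to 193, 143 to 198 and 127 to 150 TPM, with 4 of 6 above 1 TPM in some library and Clec9a, which carries Cre in both copies, and Itgae below it in every one. Markers of plasmacytoid dendritic cells summed to 105 to 110, 110 to 116 and 122 to 165 TPM, with Klk1 below 1 TPM throughout. They include Bst2, which is also counted below among the genes that type I interferon induces. Its log2 fold changes over adult were -0.68 in young TOM+ and -0.53 in young TOM- cells, neither called. Markers of NK cells summed to 198 to 256, 194 to 218 and 235 to 313 TPM, of which only Klrd1 was above 1 TPM in any library, and erythroid markers summed to at most 4.61 TPM. The part of these cells in the Schlafen results was not tested. In bulk libraries fewer cells of a type and less RNA per cell cannot be told apart.

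Slfn2, a short member whose loss in mice breaks the quiescence of T cells and monocytes, was the most abundant member in every library. Its level was 278.7, 218.99 and 198.46 TPM in young TOM+ libraries 81, 91 and 92, 257.0, 226.8 and 185.43 TPM in young TOM- libraries 81, 91 and 92, and 214.73, 209.49 and 177.96 TPM in adult libraries 91, 92 and 95. The ranges of the 3 groups overlapped, and library 81 was the highest of each young group. The log2 fold change of young TOM+ over adult was 0.08 with a 95% interval from -0.20 to 0.36 (edgeR, adjusted p = 0.66), and that of young TOM- over adult was -0.01 with an interval from -0.29 to 0.27 (adjusted p = 0.96). Both intervals lie inside a 2-fold change in either direction.

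Summed over the 7 members, the family reached 262 ± 48.6 TPM in young TOM+ cDC2, 252 ± 41.5 TPM in young TOM- DC2 and 249 ± 22.5 TPM in adult TOM+ cDC2 (mean ± SD, n = 3 libraries each). Slfn2 supplied 88.6% ± 0.624, 88.6% ± 1.44 and 80.7% ± 0.896 of that sum in the same order. The long members Slfn5, Slfn8 and Slfn9 together supplied 9.72% ± 0.386 and 9.78% ± 1.46 in the young groups and 18.1% ± 0.987 in adults. The summed level thus differed by less than its spread between libraries, while its make-up did not overlap between adult and young libraries (Slfn2 share 79.7% to 81.3% in adults and 87.5% to 90.2% in young cells). These shares are on the per-length TPM scale, on which a short transcript such as Slfn2 weighs more than in counts.

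**Figure D2:**
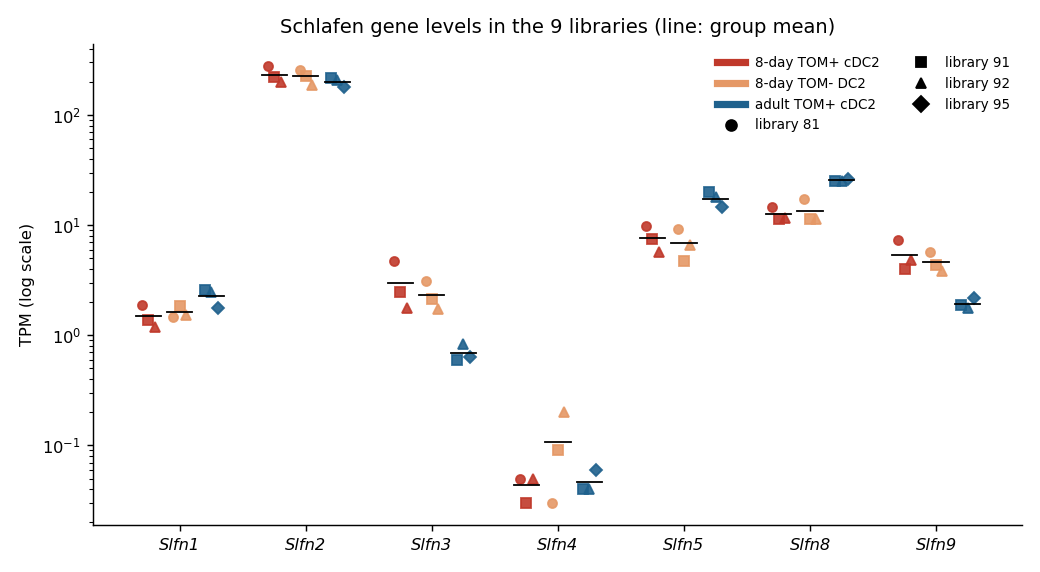
Level of each Schlafen gene in TPM (log scale) in each of the 9 libraries, coloured by group, with marker shapes for the library number and a line at the group mean. Slfn2 lies above all others at 177.96 to 278.7 TPM, Slfn5 and Slfn8 sit higher in the adult libraries, and Slfn3 and Slfn9 sit higher in the young ones.

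Ranked by mean TPM, the members differed in order between young and adult groups below the first 3 ranks. Slfn1 moved from below Slfn9 and Slfn3 to above them. Its range overlapped that of Slfn3 in the young groups and that of Slfn9 in adults, so neither change of place held beyond the ranges at both ages. In both young groups it ran Slfn2, Slfn8, Slfn5, Slfn9, Slfn3, Slfn1 and Slfn4, where Slfn5 and Slfn9 overlapped in range, as did Slfn3 and Slfn1, and in young TOM+ cDC2 also Slfn9 and Slfn3. In adult TOM+ cDC2 it ran Slfn2, Slfn8, Slfn5, Slfn1, Slfn9, Slfn3 and Slfn4, where only Slfn1 and Slfn9 overlapped among neighbours.

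Among the long members, Slfn5, whose human counterpart acts in the nucleus on interferon-driven transcription, was higher in adults. It stood at 9.78, 7.44 and 5.67 TPM in young TOM+ libraries 81, 91 and 92, at 9.17, 4.76 and 6.64 TPM in young TOM- libraries 81, 91 and 92, and at 19.77, 17.84 and 14.55 TPM in adult libraries 91, 92 and 95. Every adult library lay above every young one, a separation that was common among all genes. On scaled counts, 51.1% of all 14452 tested genes had no overlap between young TOM+ and adult libraries. Between young TOM- and adult libraries 47.6% had none. Slfn5 was 2.48-fold higher in adult than in young TOM+ cDC2 (log2 fold change -1.31, SE 0.20, edgeR adjusted p = 0.00028) and 2.85-fold higher than in young TOM- DC2 (log2 fold change -1.51, SE 0.20, adjusted p = 0.00013). Slfn5 overlaps an antisense gene, Slfn5os, and the library kit does not keep the strand, so reads that fall where the pair overlaps cannot be told apart. The unstranded counts tested here leave such reads out.

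Slfn8, a long member with the helicase-like region, had the tightest adult values of the family. Its level was 14.69, 11.35 and 11.56 TPM in young TOM+ libraries 81, 91 and 92, 17.26, 11.32 and 11.31 TPM in young TOM- libraries 81, 91 and 92, and 24.89, 25.2 and 26.13 TPM in adult libraries 91, 92 and 95. Adult and young libraries did not overlap, a separation seen in 51.1% and 47.6% of all tested genes in the 2 comparisons. It was 2.21-fold higher in adults than in young TOM+ cDC2 (log2 fold change -1.14, SE 0.14, edgeR adjusted p = 4.3e-05) and 2.18-fold higher than in young TOM- DC2 (log2 fold change -1.13, SE 0.14, adjusted p = 6e-05). On the log2(TPM + 1) scale of limma its differences were -0.97 and -0.91, short of the 2-fold threshold at adjusted p = 0.0014 and 0.0022.

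Slfn9, the near copy of Slfn8, ran the other way. It stood at 7.32, 4.02 and 4.87 TPM in young TOM+ libraries 81, 91 and 92, at 5.7, 4.35 and 3.84 TPM in young TOM- libraries 81, 91 and 92, and at 1.89, 1.75 and 2.18 TPM in adult libraries 91, 92 and 95. All 6 young libraries lay above all 3 adult ones, where 51.1% and 47.6% of all tested genes were apart in the 2 comparisons. Slfn9 was 2.51-fold higher in young TOM+ than in adult TOM+ cDC2 (log2 fold change 1.33, SE 0.22, edgeR adjusted p = 0.00039) and 2.05-fold higher in young TOM- DC2 (log2 fold change 1.03, SE 0.22, adjusted p = 0.0028). The second value sits at the 2-fold threshold, and it fell to 0.90 without young TOM- library 81, to 0.98 without adult library 92, to 0.88 without both young libraries numbered 81 and to 0.93 on the log2(TPM + 1) scale, with adjusted p-values between 0.0049 and 0.014.

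The ratio of Slfn8 to Slfn9 within a library sums up their opposite course. It was 2.40 ± 0.406 in young TOM+ cDC2, 2.86 ± 0.229 in young TOM- DC2 and 13.2 ± 1.20 in adult TOM+ cDC2 (ratio of TPM, mean ± SD, n = 3 libraries each). The highest young ratio was 3.03 and the lowest adult ratio 12.0, so the groups lay far apart. Counts from STAR, which drop reads of shared sequence, gave ratios of 2.49, 3.01 and 13.6, and expected counts from RSEM gave 2.41, 2.88 and 13.4. The sum of both genes was 17.9 ± 3.56, 18.0 ± 4.37 and 27.3 ± 0.839 TPM in the 3 groups.

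**Figure D3:**
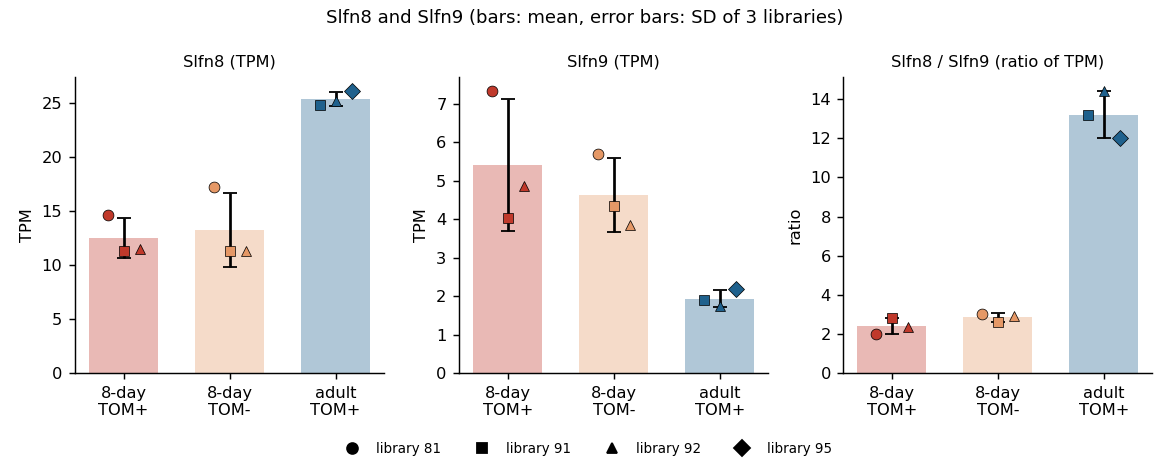
Slfn8 level, Slfn9 level (both in TPM) and their ratio in the 9 libraries, with bars for the group mean, error bars for the SD of 3 libraries and points for single libraries. Slfn8 is higher and Slfn9 lower in adult TOM+ cDC2, and the ratio rises from at most 3.03 in young libraries to at least 12.0 in adult ones.

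Of the intermediate members, Slfn3, described in T cells and in gut epithelium, was higher in the young groups. It stood at 4.71, 2.48 and 1.78 TPM in young TOM+ libraries 81, 91 and 92, at 3.11, 2.13 and 1.74 TPM in young TOM- libraries 81, 91 and 92, and at 0.6, 0.84 and 0.64 TPM in adult libraries 91, 92 and 95. Young and adult libraries did not overlap, which also held for 51.1% and 47.6% of all tested genes in the 2 comparisons. Library 81 stood apart in young TOM+ cDC2, with 71 STAR reads against 31 and 30, whereas in young TOM- DC2 the STAR counts were 32, 31 and 26. The counts behind these levels were small, with 5, 6 and 9 STAR reads in the adult libraries and 26 to 71 in the young ones. Slfn3 was 4.42-fold higher in young TOM+ than in adult TOM+ cDC2 (log2 fold change 2.14, SE 0.45, edgeR adjusted p = 0.0023) and 3.21-fold higher in young TOM- DC2 (log2 fold change 1.68, SE 0.46, adjusted p = 0.012). Without both young libraries numbered 81 the log2 fold changes were 1.65 and 1.49, and the gene was called in both comparisons. Of its windows 16.0% are shared with other genes, 7.4% with its closest relative Slfn4 and others with Gm11427 and Gm42519. A part of the Slfn3 level may therefore rest on reads that also fit another gene, which touches the expected counts and TPM more than the STAR counts.

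Slfn4, a member that macrophages induce when activated, had 4 STAR reads in all 9 libraries together (1 in young TOM+ library 92, 2 in young TOM- library 91 and 1 in adult library 95). RSEM gave it 25.2 expected reads in all, of which levels of 0.03 to 0.20 TPM per library follow. Every library was under 3 STAR reads, the limit that a count of 0 allows, so no group difference could be measured at this depth. Neutrophil markers summed to 0.95 to 37.8 TPM in the young TOM- libraries, against at most 1.82 TPM in the young TOM+ libraries and 0.76 TPM in the adult ones. Each young TOM- library held at most 2 STAR reads of Slfn4.

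Slfn1, the founding member, which slows the growth of thymocytes when it is expressed in them, was low throughout. Its level was 1.87, 1.38 and 1.2 TPM in young TOM+ libraries 81, 91 and 92, 1.46, 1.86 and 1.53 TPM in young TOM- libraries 81, 91 and 92, and 2.6, 2.46 and 1.78 TPM in adult libraries 91, 92 and 95. Adult library 95 lay inside the range of the young libraries on this scale. The log2 fold change of young TOM+ over adult was -0.74 with a 95% interval from -1.37 to -0.11 (edgeR adjusted p = 0.06), and that of young TOM- over adult was -0.66 with an interval from -1.29 to -0.03 (adjusted p = 0.094). Neither passed the test, and both intervals reach past the 2-fold threshold. For young TOM+ over adult, the edgeR adjusted p fell below 0.05 in some alternatives, with changes still under 2-fold. It was 0.043 with a mean count of at least 10, 0.042 without both young libraries numbered 81 and 0.034 without adult library 95.

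Counted together, 2 of the 6 tested members were called higher in young TOM+ cDC2, where 5.96% of all 14452 tested genes were, and 2 were called higher in adult TOM+ cDC2, where 6.86% of all genes were. Against young TOM- DC2, 2 members were called higher in the young cells (6.5% of all genes) and 2 higher in the adult cells (4.78% of all genes). Called here means a change of more than 2-fold at an edgeR adjusted p under 0.05. The median log2 fold change of the 6 members was -0.33 in both comparisons, beside 0.05 and 0.07 over all tested genes. Both comparisons use the same 3 adult libraries and are not independent of each other. With limma on log2(TPM + 1), 3 members were called in the first comparison and 1 (Slfn5) in the second.

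**Figure D4:**
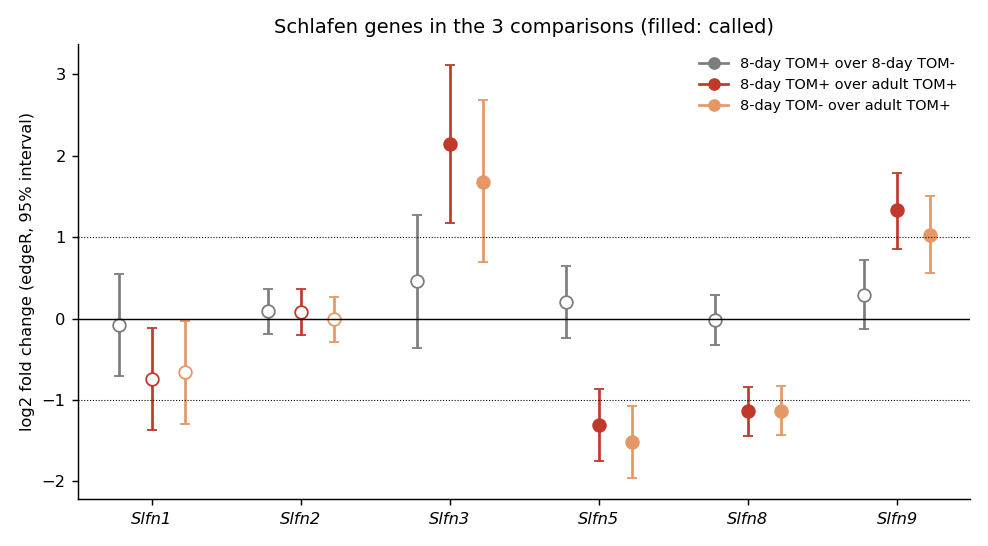
Log2 fold change with its 95% interval (edgeR) for the 6 tested Schlafen genes in the 3 comparisons, with filled points for called genes and dotted lines at a 2-fold change. Slfn3 and Slfn9 lie above 0 and Slfn5 and Slfn8 below 0 in both comparisons with adult cells, while all 6 intervals of the comparison between the young groups include 0.

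Between young TOM+ cDC2 and young TOM- DC2, 0 of the 6 tested members were called by edgeR, and 1.18% of all tested genes were. None reached an unadjusted p under 0.05 (the lowest was 0.16, for Slfn9), and DESeq2 and limma also called 0. The widest interval was that of Slfn3, with a log2 fold change of 0.46 from -0.36 to 1.27, which includes a 2-fold difference. For Slfn9 the value was 0.29 (-0.13 to 0.72), for Slfn5 0.20 (-0.24 to 0.65), for Slfn2 0.09 (-0.19 to 0.37), for Slfn8 -0.02 (-0.32 to 0.29) and for Slfn1 -0.08 (-0.71 to 0.55). These intervals, unlike that of Slfn3, lie within a 2-fold change in either direction. Young TOM+ and TOM- libraries with the same number varied together, and library 81 was the highest of both young groups for Slfn2, Slfn3, Slfn5, Slfn8 and Slfn9. Taking out this shared variation with a term for the number changed no call on a member.

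Related genes of the family outside the 7 were sparse. Slfn10-ps, an annotated pseudogene next to Slfn8, had 1.10 ± 0.182, 1.19 ± 0.276 and 0.650 ± 0.380 TPM in young TOM+, young TOM- and adult cells (n = 3 each), and its log2 fold changes over adult of 0.76 and 0.80 were not called (edgeR adjusted p = 0.18 and 0.17). It shares sequence with Slfn8 and Slfn9, so its reads are uncertain in the same way. Slfn14 had 0 to 17 STAR reads per library and was not called in any comparison.

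Since Schlafen genes are known as interferon-induced genes, lists of such genes were set beside them. Of 35 tested genes that type I interferon induces, 24 were called higher in adult than in young TOM+ cDC2 and 22 higher than in young TOM- DC2, with 0 called higher in young cells and medians of -1.28 and -1.21. Examples are Oas2, a sensor enzyme for double-stranded RNA (4.34 ± 0.933 TPM in young TOM+ and 30.2 ± 7.04 TPM in adult cells, n = 3 each), and Ifi44 (0.127 ± 0.0611 and 2.61 ± 1.40 TPM), with log2 fold changes of -2.93 and -4.58. Oas1g followed with -2.75 against young TOM+ cDC2 and -3.02 against young TOM- DC2, where Oas3 (-2.64) was also among the 3 with the largest change. Slfn5 and Slfn8 were called in the direction of this list, and Slfn3 and Slfn9 in the direction in which no gene of the list was called.

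Guanylate-binding and immunity-related GTPases, a group that interferon-γ induces, held 14 tested genes, of which 7 and 6 were called higher in adult cells in the comparisons with young TOM+ and young TOM- cells and 0 lower (medians -1.23 and -1.02). Tgtp1 was at 2.05 ± 0.291 TPM in young TOM+, 3.52 ± 0.457 TPM in young TOM- and 20.3 ± 2.43 TPM in adult cells (n = 3 each). Tgtp2 changed by -2.43 and -2.39, Gbp8 by -1.54 against young TOM+ cDC2 and Gbp5 by -1.40 against young TOM- DC2, on the log2 scale. Of 16 receptors and signalling proteins of the interferon pathway, 4 and 3 were called higher in adults and 0 lower (medians -0.74 and -0.54), among them the transcription factor Irf7 (44.4 ± 5.87, 45.3 ± 8.20 and 170 ± 14.4 TPM) and the feedback inhibitor Usp18 (36.8 ± 3.99, 46.5 ± 1.92 and 149 ± 15.4 TPM).

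Genes of proliferation, a process that Schlafen proteins are known to restrain, went the other way. Of 10, 9 were called higher in young TOM+ and 6 higher in young TOM- cells than in adult cells, with 0 lower (medians 1.35 and 1.16). Ccnb1, a mitotic cyclin, was at 69.0 ± 13.4, 72.3 ± 12.0 and 18.8 ± 4.80 TPM in young TOM+, young TOM- and adult cells, Cdk1 at 48.5 ± 5.44, 43.4 ± 3.93 and 15.6 ± 3.82 TPM, and Rrm2, which makes deoxynucleotides, at 285 ± 6.67, 260 ± 6.51 and 91.7 ± 21.6 TPM (n = 3 each). None of these lists had a called gene between the young groups by edgeR, with 8 of 35, 0 of 14, 2 of 16 and 1 of 10 genes at an unadjusted p under 0.05 in the type I, GTPase, signalling and proliferation lists, beside 1355 of all 14452 tested genes, and the lists are given as counts without a test of their own.

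**Figure D5:**
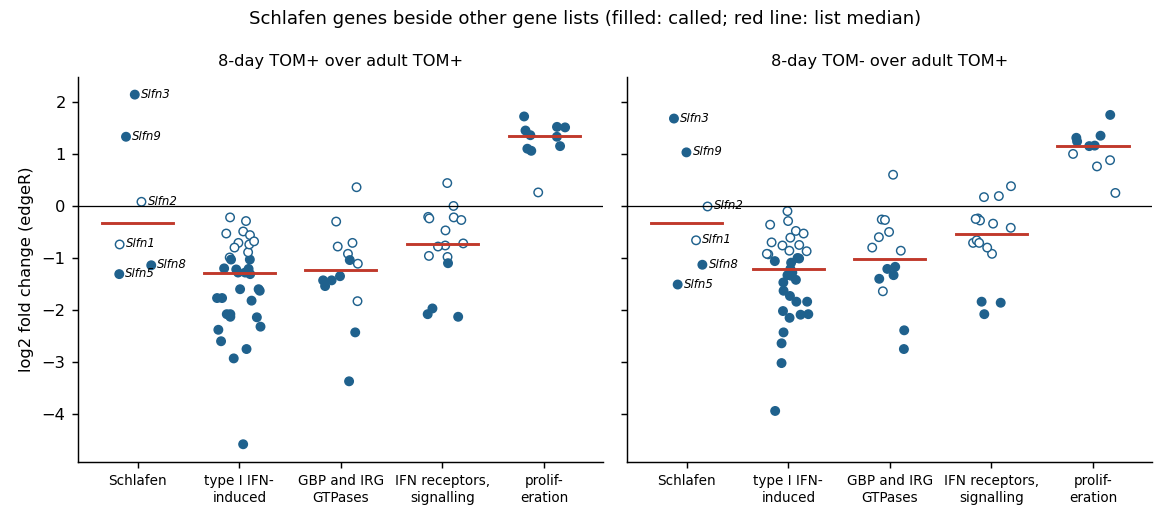
Log2 fold change over adult TOM+ cDC2 for young TOM+ cDC2 (left) and young TOM- DC2 (right), for the Schlafen genes and 4 other lists, with 1 point per gene, filled points for called genes and red lines at list medians. The Schlafen points spread from 2.14 (Slfn3) to -1.31 (Slfn5) on the left, whereas called genes of the interferon lists lie below 0 and those of proliferation above 0.

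Genes on either side of the Schlafen cluster were not called in any comparison. The expressed neighbour Nle1, a ribosome assembly factor, stood at 16.8 ± 1.28, 14.6 ± 1.64 and 9.19 ± 1.24 TPM in young TOM+, young TOM- and adult cells (n = 3 each), with log2 fold changes over adult of 0.72 and 0.51 (edgeR adjusted p = 0.0019 and 0.016), below the 2-fold threshold. Unc45b, AA465934 and AI450353 were low and did not pass the test, and Fndc8 and Snord7 had too few reads to be tested.

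Across the 9 libraries, the genes whose log2 levels ran most like those of a member were described by Pearson's r among 10108 genes, where all 9 points share the division into young and adult libraries. The closest to Slfn8 were H2-K2 (0.993), Lrch1 (0.992) and Rfx5 (0.990), and the closest to Slfn5 were Zfp366 (0.988), Mllt4 (0.987) and Top3b (0.987). For Slfn9 they were Exosc9 (0.991), Fam149a (0.987) and Rbl1 (0.984), and for Slfn2 they were Pak2 (0.919), Morc3 (0.916) and Clpx (0.887). Among the members themselves, r was 0.965 between Slfn5 and Slfn8, -0.809 between Slfn8 and Slfn9 and -0.784 between Slfn5 and Slfn9, while Slfn2 had values of 0.0265 to 0.287 with these 3.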

How the data were processed

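RNA of sorted cells was amplified with the SMART-seq v4 kit, which does not keep the strand, and sequenced as single-end reads of 50 bases. Per the labels, the authors mapped reads to mm10 with STAR and RSEM (versions not given in the sources used here). The authors deposited raw read counts per gene from STAR, of which the unstranded column was used, and RSEM's estimated counts (expected counts), TPM and FPKM (not used). Between 26.1% and 31.6% of reads were not assigned to a gene by STAR and stayed out of library sizes. They were unmapped, outside genes, ambiguous between genes or mapped to several places (the last 10.44% to 13.41% of reads). Counts were fitted with edgeR 4.0.16 (quasi-likelihood test, TMM) in R 4.3.3 over the 14452 genes whose mean count reached 1, with all 9 libraries in 3 groups, with Benjamini-Hochberg adjustment over all tested genes, and calls needed an absolute log2 fold change over 1 and an adjusted p under 0.05. Levels are the deposited TPM, and limma used log2(TPM + 1). DESeq2 1.42.0, limma 3.58.1, another scaling, other filters, estimated counts rounded to whole numbers, leaving out libraries and a term for the library number were alternatives. The fits were tested on simulated data first. Leaving out both young libraries numbered 81 was added after the values were seen.

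The members and lists were chosen with earlier results of these data known. Named were all members, related Schlafen genes, per list and comparison the 3 called genes with the largest change (except a gene not reported here), 3 neighbours on each side of the cluster, and for members with a mean count of at least 50 the 3 genes with the highest Pearson correlation of log2 CPM. Same-numbered young TOM+ and TOM- libraries deviated together (r = 0.746, 0.501 and 0.517 over 10112 genes). The number, which the labels do not explain, was therefore treated as pairing them in an alternative fit. The main tests held no such term. Alignments and motif searches used Python 3.11.15 with Biopython 1.88, GENCODE M21 transcripts and RefSeq promoter windows, in which all 7 members were found. Intervals are 95% intervals, and depth limits what the counts of Slfn1, Slfn3 and Slfn4 can show.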

Additional observations from a re-analysis of the deposited data

Results flagged for a closer look

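Slfn5os, the antisense partner of Slfn5, had 0 reads in the unstranded counts of every library, in which reads over both genes are left out as ambiguous. The 2 stranded columns of the same tables, not used in any comparison, gave it 114 reads in all (32 in young TOM+, 25 in young TOM- and 57 in adult libraries). Slfn5 had 1491, 1255 and 2462 unstranded reads in the same groups, and 1522, 1281 and 2519 over both stranded columns. With a kit that does not keep the strand, these reads cannot be given to either gene.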

How the results depend on the processing

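Of 342 log2 fold changes of members under the alternatives, 317 kept their direction and their side of the threshold. In 17 the sign turned, all of values that were not called. When single libraries were left out, ranges that crossed 0 between the young groups were -0.24 to 0.06 for Slfn1, -0.02 to 0.17 for Slfn2, -0.01 to 0.70 for Slfn3 and -0.12 to 0.17 for Slfn8, and against adult cells -0.03 to 0.15 (young TOM+) and -0.11 to 0.08 (young TOM-) for Slfn2. Without both young libraries numbered 81, Slfn8 between the young groups was 0.09 and Slfn2 in young TOM+ over adult -0.05. Slfn2 in young TOM- over adult was 0.14 with limma at either pseudocount. Of the 8 calls that were lost, 7 belonged to Slfn8 and Slfn9 and 1 to Slfn3, each with an adjusted p below 0.05 and a change just under 2-fold.

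With limma on log2(TPM + 1) the members called against young TOM- DC2 went from 4 to 1, and all genes called went from 1853 to 1122 (young TOM+) and from 1631 to 986 (young TOM-). On this scale the median over all genes was 0.14 in place of 0.07 in the comparison with young TOM- DC2, and the cause of the lost calls was not tested. Leaving out single libraries gave 0 members called between the young groups and 4 in young TOM+ against adult each time, and 3 to 4 in young TOM- against adult. The replicate block on the library number gave 0, 4 and 4, and changed no call on a member. The share of Slfn2 in the family was 89.4% (young TOM+) and 81.6% (adult) from STAR counts per length, and 75.6%, 75.6% and 60.1% from expected counts without division by length. Of the 3 genes most like a member, 0 to 2 were shared with a ranking by Spearman's rho or on log2(TPM + 1). Counts of 5 to 9 reads limit Slfn3 in adult cells, and Slfn4 could not be measured.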
